A study of Mus musculus with 3 samples.

Results

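The genes described here are 10 AP-1 and immediate early genes in mouse tail-tip fibroblasts on day 8 of reprogramming. They are the AP-1 subunits Fos, Fosb, Fosl1, Fosl2, Jun, Junb and Jund, the AP-1 related factor Atf3, the zinc finger factor Egr1 and the stress-response gene Ier3. They were chosen by name, and every probe whose RefSeq accession belongs to 1 of them was taken: 11 probes, for 10 of the 20825 genes that could be named on the array. All 10 genes were well above background on all 3 arrays. Between old and young wild-type (WT) cells none of them differed by 1.5-fold, and only 11.6% of all genes counted did. With loss of p16 the level of Jun was 1.61-fold lower than in old WT cells, and Ier3 1.38-fold lower, while Jund was 1.35-fold higher. Atf3 was 1.41-fold higher, from 1 spot with a signal in the range that some spots of dim probes reach.

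The cells were fibroblasts isolated from tail tips of mice and given the reprogramming factors Oct4, Sox2, c-Myc and Klf4. RNA taken on day 8 was labelled with Cy3 and hybridised to 1-colour Agilent arrays. The Young WT array holds cells of 2-month-old WT donors, the Old WT array cells of 22-month-old WT donors, and the Old p16-/- array cells of 22-month-old donors that lack p16, the cyclin-dependent kinase inhibitor made from Cdkn2a. All 3 groups received the same factors, and no group without them was analysed here. The series design names 2 independent experiments on different donors. Since each group is a single array, no spread over replicates exists: differences are described by size, and no test was run. The Old p16-/- over Young WT ratio is the sum of the 2 other log2 ratios and shares both arrays with them.

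Immediate early genes are transcribed within minutes of a growth factor, serum or stress signal, without the need for new protein. AP-1 is a dimer of a Jun protein with a Fos protein, another Jun protein or an Atf protein, joined by leucine zippers, and it binds short palindromic sites in promoters and enhancers. In fibroblasts AP-1 occupies many enhancers that are active in that cell type, and c-Jun, the product of Jun, is known as a factor that impedes reprogramming.

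The promoters of 3 genes are shown because their genes carry the points made below: Jun differed most between arrays, Fos was read by the most spots, and Atf3 had the highest ratio of Old p16-/- over Old WT. Each is the 250 bases before the start site, from RefSeq on GRCm38.p6, 5′ to 3′ along the gene's strand. The windows lie at chr4:95052223-95052472 on the minus strand for Jun, chr12:85473640-85473889 on the plus strand for Fos and chr1:191183334-191183583 on the minus strand for Atf3. Capitals mark matches, on either strand, to TGACGT (a core of cyclic AMP response elements), TATAAA or TGACATCA (an AP-1 and Atf-like element).
Jun: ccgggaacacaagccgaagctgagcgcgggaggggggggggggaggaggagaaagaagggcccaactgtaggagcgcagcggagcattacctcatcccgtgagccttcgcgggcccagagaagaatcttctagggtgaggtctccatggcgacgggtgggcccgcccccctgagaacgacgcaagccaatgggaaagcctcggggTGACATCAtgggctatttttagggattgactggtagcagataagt
Fos: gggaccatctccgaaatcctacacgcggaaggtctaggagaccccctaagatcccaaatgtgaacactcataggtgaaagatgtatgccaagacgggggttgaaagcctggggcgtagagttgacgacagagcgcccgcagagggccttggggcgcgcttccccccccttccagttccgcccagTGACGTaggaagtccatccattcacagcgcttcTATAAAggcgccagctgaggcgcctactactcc
Atf3: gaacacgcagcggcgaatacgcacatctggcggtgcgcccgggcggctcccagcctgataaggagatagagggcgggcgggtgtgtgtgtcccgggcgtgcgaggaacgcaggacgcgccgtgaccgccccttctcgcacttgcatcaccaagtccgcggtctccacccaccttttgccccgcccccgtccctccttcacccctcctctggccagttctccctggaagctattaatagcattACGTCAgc

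The Jun window holds TGACATCA from base 45 to base 38 before the start, on the gene's strand. The Fos window holds TGACGT at bases 66 to 61 and TATAAA at bases 33 to 28. In the Atf3 window TGACGT lies on the opposite strand at bases 8 to 3. Of the 10 genes, 8 had a promoter in the table. Among them TGACGT was present in 2 (Fos and Atf3), TATAAA in 1 (Fos) and TGACATCA in 1 (Jun). Among all 32851 promoter windows of this length TGACGT was present in 6.47%, TATAAA in 12.4% and TGACATCA in 2.93%. The shorter AP-1 site TGANTCA was in 0 of the 8 and in 6.75% of all. These matches describe the letters of the windows.

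Levels are given as the processed signal, a background-subtracted spot intensity. A log2 ratio is the difference of log2 signals after subtracting each array's 75th percentile, which was 2338, 2255 and 2243 on Young WT, Old WT and Old p16-/-. Errors within an array are described in 2 ways, of which the first is the scanner software's estimate and only the second was measured, on repeat spots. The estimate is close to 10% throughout, so 2 scanner errors act as nearly the same cutoff for all 10 genes. Feature Extraction's own error estimate was 10% to 10.97% of the signal for the brightest probes of the 10 genes, which gives each of their log2 ratios an error of 0.20 to 0.22. Probes spotted 10 times had a median SD of 0.05 to 0.06 in log2 between spots, or 0.077 for a ratio. Neither measure holds any difference between cultures or donors.

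Of the 43020 spots on each array, 57.4% to 61.6% were well above background, and none was saturated. Cdkn2a read 62705 and 65464 on the young and old WT arrays, and 28065 where p16 was lost. Where its probes lie relative to the deletion is unknown, so this is no check of the genotype. The 11 fibroblast markers were above background on all arrays, and for Old p16-/- over Old WT 1 was 2-fold lower, the surface marker Thy1 (-3.98), and 1 higher, the growth factor receptor gene Pdgfra (1.61). The Y-linked gene Ddx3y read 3949 on Young WT and was not well above background on the old arrays, whereas Xist showed the reverse, with 1548 on Old WT and 1387 on Old p16-/-. Donor sex therefore goes with age in every comparison with Young WT, and the 2 cannot be told apart there.

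**Figure D1:**
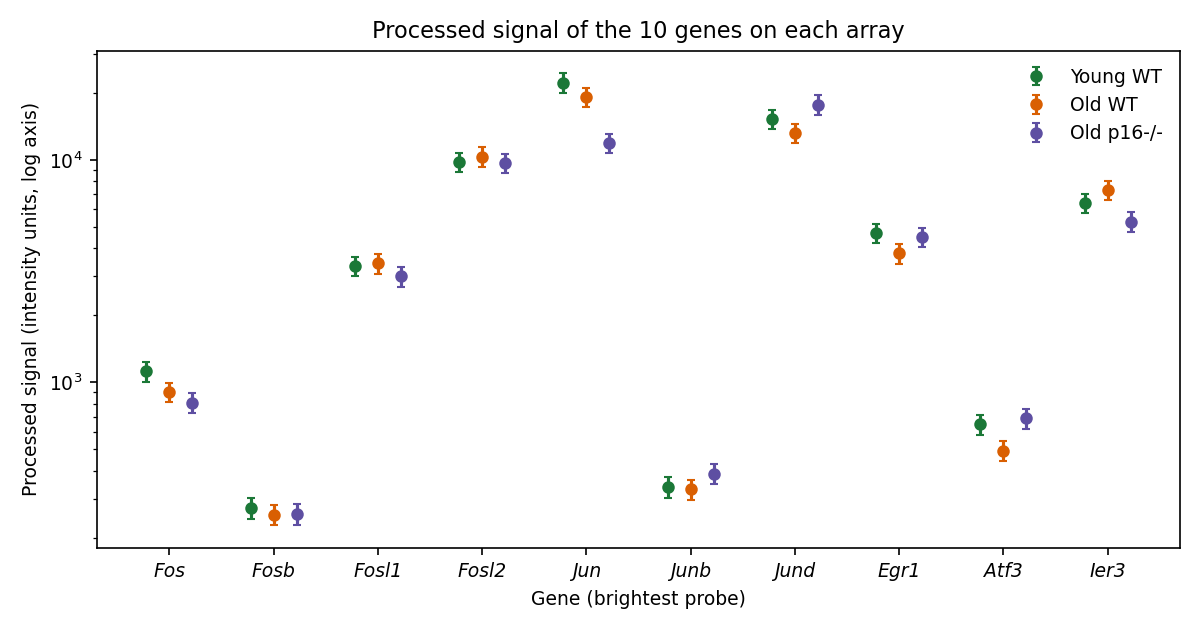
Processed signal (intensity units, log axis) of the brightest probe of each of the 10 genes on each of the 3 arrays; bars are the scanner software's error estimate. Jun differs most, with readings of 22246, 19167 and 11868, and Jund, Atf3 and Ier3 also differ by more than 2 scanner errors between the 2 old arrays. For Jund, Atf3 and Ier3 this does not hold under every alternative setting. Heights are not comparable between genes, because probes differ in brightness.

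Among the Fos family, Fos, the prototype subunit that is induced and lost quickly, was read by 1 probe spotted 10 times. Its spots had a mean signal of 1119 ± 41.9 (SD over 10 spots) on Young WT. On the old arrays it was 904 ± 40.5 with p16 and 810.0 ± 31.5 without. All 10 spots on Young WT, with the lowest at 1049, lay above all spots on Old WT, of which the highest was 972. Of the 10 spots on Old p16-/-, 8 lay below the lowest spot on Old WT (830). The step from Young WT to the old arrays was thus larger than the spread of spots on an array, while the spots of the 2 old arrays overlapped. Spots are repeat readings of the same RNA and not replicates. The log2 ratios were -0.26 for Old WT over Young WT, -0.15 for Old p16-/- over Old WT and -0.41 for Old p16-/- over Young WT, which are 1.25, 0.73 and 1.98 times the scanner error and so within 2 scanner errors.

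**Figure D2:**
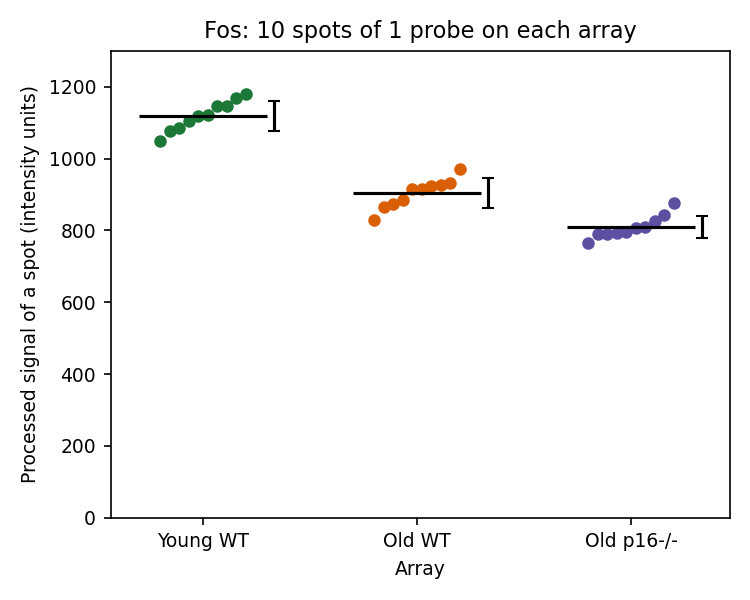
Processed signal (intensity units) of each of the 10 Fos spots on the 3 arrays, before scaling; the horizontal line is the mean over spots and the bar its SD. The Young WT spots lie from 1049 to 1179, the Old WT spots from 830 to 972 and the Old p16-/- spots from 766 to 876.

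The other Fos family genes differed little. Fosb, a close relative of Fos with the same brief induction, read 273, 254 and 256 on Young WT, Old WT and Old p16-/-, and its largest log2 ratio was -0.05. Fosl1 encodes Fra-1, a Fos protein without the strong transactivation domain of Fos. It read 3328, 3423 and 2989, with ratios of 0.09 with age and -0.19 with loss of p16. Fosl2, which encodes the related Fra-2, read 9786, 10335 and 9675 by its brighter probe, with ratios of 0.13 and -0.09. Its second probe read 58.4, 65.6 and 65.0, and gave 0.22 and -0.01. The levels of these 3 genes on neighbouring arrays lay within the scanner software's error of each other.

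Jun family genes went in different directions with loss of p16. Jun read 22246 (Young WT), 19167 (Old WT) and 11868 (Old p16-/-). The Old p16-/- array stood below both WT arrays, and the WT arrays lay within the scanner software's error of each other. The log2 ratios of Jun were -0.16 (old over young WT), -0.68 for Old p16-/- over Old WT and -0.85 for Old p16-/- over Young WT, or 1.12-fold, 1.61-fold and 1.80-fold lower. Junb, a less active Jun protein that can oppose Jun, read 338, 330 and 388, with ratios of 0.01 and 0.24 for the first 2 comparisons. Jund, the family member that is expressed in resting cells and induced least, read 15256, 13158 and 17715. Its ratios were -0.16 with age and 0.44 with loss of p16, so that its highest level was on the array where Jun was lowest.

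The gap between Jun and Jund does not depend on the factor by which a whole array is scaled. The log2 ratio of Jun minus that of Jund was -1.12 for Old p16-/- over Old WT, with a scanner error of 0.29, a 2.17-fold shift of the 2 genes relative to each other. For Old WT over Young WT it was 0.00. Among the 28 pairs of the 8 AP-1 and Atf3 genes, 2 had shifted by at least 2-fold for Old p16-/- over Old WT, Jun against Jund and Jun against Atf3 (-1.18). For Old p16-/- over Young WT there were 3, and Jun was in each, against Junb (-1.10) and Jund (-1.12) and, just past 2-fold, Atf3. No pair had shifted that far for Old WT over Young WT. All of these pairs hold Jun, so they are not separate observations. What share of pairs among all genes shifts as far was not computed. The pairs were picked out after their values were seen.

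Atf3, a stress-induced factor that dimerises with Jun proteins, read 646 (Young WT), 492 (Old WT) and 690 (Old p16-/-). Old WT was the lowest array, with a log2 ratio of -0.34 over Young WT, and Old p16-/- stood 0.49 above it. Egr1, a zinc finger factor induced by the same serum and kinase signals, showed the same order of old arrays on a smaller scale. It read 4691, 3795 and 4494, with ratios of -0.25 and 0.25, and Old p16-/- equalled Young WT (0.00). Ier3, an early gene linked to cell survival under stress, had the opposite order. Its signals were 6400, 7332 and 5275, with ratios of 0.25 with age and -0.47 with loss of p16.

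**Figure D3:**
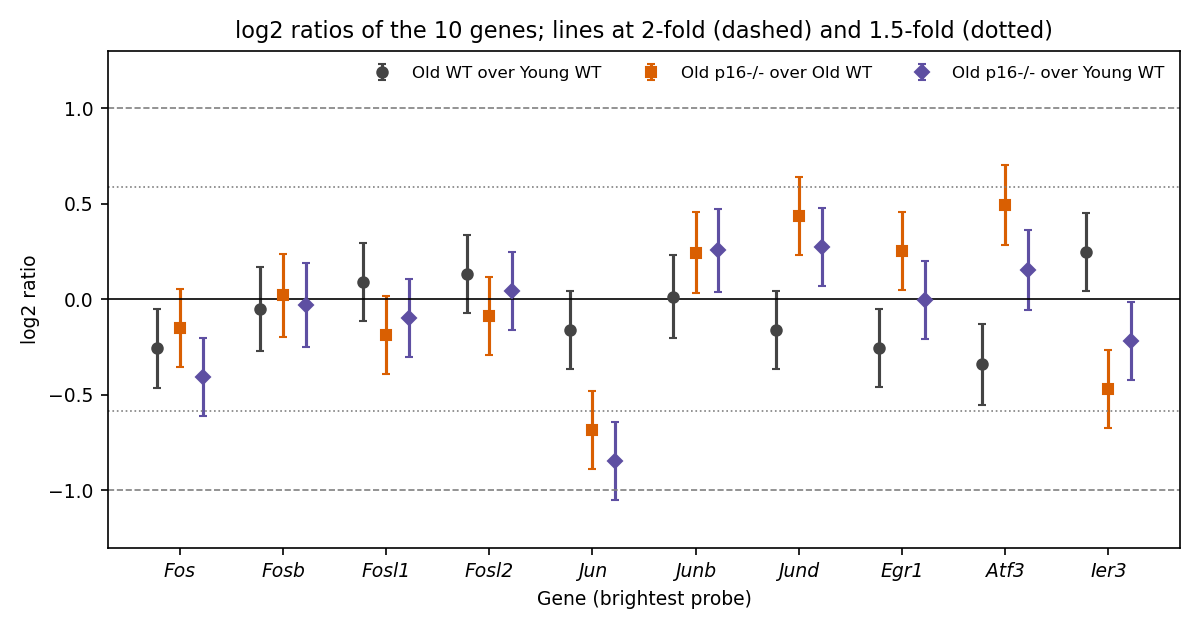
log2 ratios of the 10 genes for the 3 comparisons, with bars of 1 scanner error; dashed lines mark 2-fold and dotted lines 1.5-fold. All points lie inside the dashed lines, and Jun alone crosses a dotted line, at -0.68 and -0.85.

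Over the 10 genes, the age comparison, Old WT over Young WT, showed 4 genes above 0 and 6 below. The median log2 ratio was -0.11, against -0.01 over all 14546 genes counted (those that cleared background on 1 array or both). None of the 10 was 2-fold apart, where 6.11% of all genes were, and none 1.5-fold apart, where 11.6% were. None passed 2 times its scanner error either, against 12.2% of genes above background on both arrays. The SD of a ratio measured on repeat spots (0.077) is smaller. In size 8 of the 10 ratios exceeded it, against 66.7% of all genes counted. For Old p16-/- over Old WT and over Young WT it was 9 and 7 of 10, against 80.8% and 77.9%.

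In the p16 comparison, Old p16-/- over Old WT, 5 genes lay above 0 and 5 below, with a median of -0.03 against 0.03 over 14691 genes. None was 2-fold apart (12.5% of all genes) and 1, Jun, was 1.5-fold apart (24.2%). Jun, Jund, Atf3 and Ier3 passed 2 times their scanner error, 4 of 10 against 28.3% of genes. These shares rest on 10 genes, and nothing is read from their distance to the shares of all genes. Of the 4 genes only Jun stayed past 2 scanner errors under every alternative setting, at -0.62 where smallest in size. The smallest values were 0.35 for Jund, 0.40 for Atf3 and -0.406 for Ier3, with scanner errors of 0.204, 0.209 and 0.204.

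For Old p16-/- over Young WT 4 genes lay above 0 and 6 below, with a median of -0.02 against 0.03 over 14281 genes. Again 0 of the 10 were 2-fold apart (13.3% of all genes), and Jun was 1.5-fold apart (23.6%) and past 2 scanner errors (25.6%). The genes most like Jun over the 3 arrays, by Euclidean distance in the first 2 log2 ratios, were Eva1a (0.030), Ceacam2 (0.030) and Fbn1 (0.035). In all, 45 of 12886 genes lay within 0.1 of Jun, so 3 arrays do not single any of them out.

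Fosb, Junb and Atf3 had signals under 1000 on all arrays. Single spots of probes that are otherwise at background were called well above it with signals of up to 694, 794 and 870 on Young WT, Old WT and Old p16-/-. These 3 genes rest on 1 spot each, for which such a reading would not be recognised.

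Marker genes of other cell types differed between the arrays too. Of 9 macrophage markers counted, 8 were at least 2-fold lower on Old WT than on Young WT, with a median of -2.20. In array order (Young WT, then Old WT, then Old p16-/-) 9, 9 and 3 of 10 were above background, and the summed signal was 22214, 7050 and 2702. On Old p16-/- the macrophage genes Adgre1, Lyz2, C1qa, C1qb, C1qc, Tyrobp and Ctss were not well above background. Ptprc, the pan-leukocyte gene, went the other way: it cleared background on that array alone, with a signal of 89.9, and its bound over Old WT was 1.33 in log2. Fewer such cells and less RNA per cell cannot be told apart in a bulk sample. Macrophages also express immediate early genes, and the part of these cells in the lower Fos and Atf3 of Old WT, and in the lower Fos and Jun of Old p16-/-, was not tested. Of 6 epithelial and keratinocyte markers 5, 6 and 6 were above background on the 3 arrays, with summed signals of 5040, 3266 and 7473. For Old p16-/- over Old WT their median was 0.67, and the keratin genes Krt8 (from 510 to 1777, or 1.81) and Krt18 (from 464 to 1990, or 2.11) were at least 2-fold higher, while the cadherin gene Cdh1, with a signal under 1000 and named after its value was seen, was at -0.96. The part of these cells in the values of Jun, Jund, Atf3 and Ier3 on Old p16-/- was not tested either. Heat shock genes, which respond to handling stress as immediate early genes do, showed 0 of 9 at least 2-fold apart in any comparison, with medians of -0.04, -0.05 and -0.05. At 1.5-fold, 1 was lower for Old p16-/- over Old WT, the small heat shock gene Hspb1 (from 119680 to 60195, or -0.98). Against Young WT 2 were lower, Hspb1 (-0.96) and Hspa1a (-0.71; signal under 1000). Both are named after their values were seen.

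Over all genes counted, 6.11%, 12.5% and 13.3% were at least 2-fold apart in the 3 comparisons. At 1.5-fold the shares were 11.6%, 24.2% and 23.6%. They belong beside the counts of the markers above and of the lists below. Other immediate early genes were described from a list. Of 21 on the list, 18 could be counted, and Egr3, Egr4 and Nr4a3 did not clear background on a single array. None was 2-fold apart for either comparison with Old WT. The median was -0.09 for Old WT over Young WT, a sign that other settings turn (up to 0.05). For Old p16-/- over Old WT it was -0.11, with 4 of 18 above 0 where 53.5% of all genes were, and this median ranged from -0.39 (signal of at least 1000) to -0.05 over the settings. For Old p16-/- over Young WT it was -0.28, with 3 of 18 above 0 against 55.0% of all genes. Csrnp1, a nuclear protein gene induced through Axin and growth signals, read 3780, 2874 and 1708. It was 2-fold lower on Old p16-/- than on Young WT (-1.09), the only one of the list that was. The nuclear receptor gene Nr4a1 read 23184, 18680 and 17310, and the zinc finger gene Klf6 23849, 23484 and 17884. For Old p16-/- over Old WT 24.2% of all genes were 1.5-fold apart. Of the list, 4 were lower by that much, namely Klf2 (-0.77), Csrnp1 (-0.74), the synaptic gene Arc (-0.63) and the matrix protein gene Ccn1 (-0.59). The RNA-decay factor Zfp36l1 was higher (0.79). Apart from Csrnp1, these 5 are named after their values were seen.

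**Figure D4:**
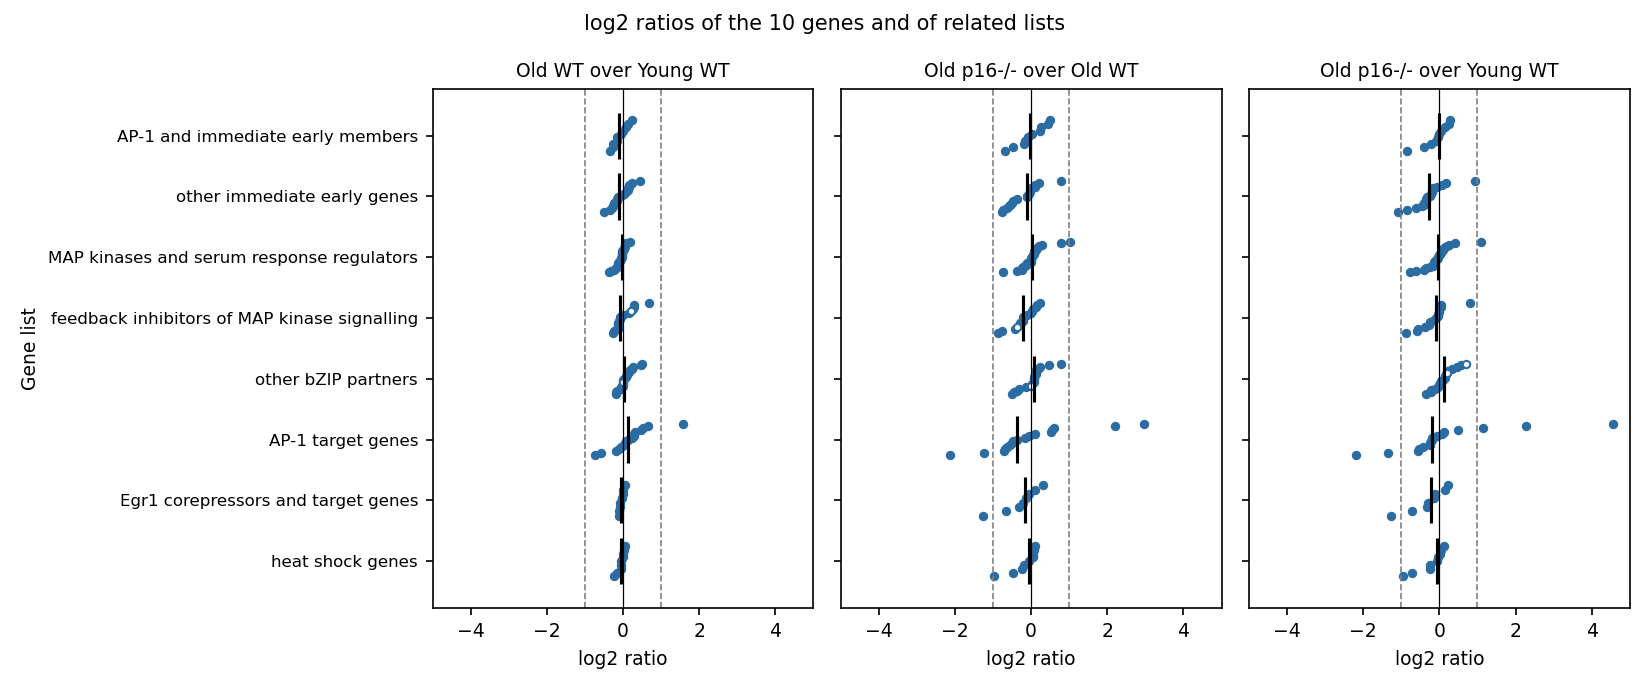
log2 ratios of the 10 genes and of 7 related lists for the 3 comparisons; each point is a gene, open points are bounds where 1 array was not well above background, black bars are medians and dashed lines mark 2-fold. The AP-1 target genes spread farthest, up to 4.56 for Mmp13, while the medians of all lists stay between -0.38 and 0.14.

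Upstream of these genes stand MAP kinases and the serum response factors that they act on. All 24 could be counted, with medians of -0.04, 0.01 and -0.03 for the 3 comparisons, each of which changes sign under another setting. Elk3, a partner of serum response factor, read 9578, 9823 and 19689 and was the only one at least 2-fold apart. Its ratio was 1.01 for Old p16-/- over Old WT and 2 further probes gave 0.73 and 0.56 for the first of these. For Old p16-/- over Old WT 24.2% of all genes were at least 1.5-fold apart. At that threshold Rps6ka1, a kinase gene of the pathway, was higher too (from 2454 to 4173, or 0.77). Mrtfa, a coactivator of serum response factor, was lower (from 17219 to 10284, or -0.74). Both ratios are larger in size than that of Jun, and both genes are named after their values were seen. The kinase gene Map2k4 was at -0.01 for Old p16-/- over Old WT. Feedback inhibitors of the pathway, the Dusp phosphatases and Sprouty proteins among them, had none at least 2-fold apart in any comparison (16, 16 and 15 counted), and medians of -0.07, -0.21 and -0.09. The median for Old p16-/- over Old WT was -0.05 where a signal of at least 1000 was required. The Sprouty gene Spry1 was at 0.01 and 0.03, and the phosphatase gene Dusp8 at 0.00 for Old p16-/- over Old WT. By their brightest probes, the other leucine zipper partners also had none at least 2-fold apart, with 19, 19 and 18 counted. Their medians were 0.04, 0.08 and 0.12, of which the first 2 reached 0.00 under another setting. The dimmest probe of Atf2 differed more: in array order it read 65.8, 68.5 and 509, or 2.90 for Old p16-/- over Old WT. In that comparison the brightest Atf2 probe gave 0.17, and the others 0.12 and -0.05. The dimmest probe stayed under 1000 throughout and is named after its value was seen. The stress factor Atf4 and the inflammation-linked Cebpb were at 0.03 and 0.06 for Old p16-/- over Old WT.

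Genes known as AP-1 targets differed in both directions. Of 18, 17 could be counted. For Old WT over Young WT the median was 0.14 (0.25 with a signal of at least 1000), and the collagenase gene Mmp13 was the only one at least 2-fold apart, with signals of 944 and 2724 (1.58). For Old p16-/- over Old WT the median was -0.38, with 2 at least 2-fold higher and 2 lower. Of all genes counted, 12.5% were 2-fold apart in that comparison. Mmp13 went from 2724 to 21302 (2.98), and the stromelysin gene Mmp3 went from 6033 to 27858 (2.22). Among those lower was Plau, the urokinase gene (-1.25; signal under 1000, named after its value was seen). Against Young WT, Old p16-/- was also higher in Spp1, the osteopontin gene (1.14), while Timp1, an inhibitor of Mmp proteins, stayed at 0.08. Each of these genes answers to factors besides AP-1.

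Corepressors and targets of Egr1 numbered 8, with medians of -0.05, -0.17 and -0.22, which kept their sign over the settings but moved to between -0.09 and 0.00, -0.29 and -0.11, and -0.27 and -0.14. F3, the tissue factor gene, read 45642, 43410 and 18012 and was the only one at least 2-fold apart (-1.26 for Old p16-/- over Old WT, and -1.11 by a second probe). Tgfb1 and the prostaglandin synthase gene Ptges were at -0.06 and 0.09, although a second, dimmer probe of Ptges gave -0.71. Nab2, a corepressor that Egr1 itself induces, was at 0.00 for Old WT over Young WT, where a second probe with signals under 1000 gave 1.54.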

How the data were processed

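Intensities were measured with 1-colour Agilent arrays, 1 each for Young WT, Old WT and Old p16-/-. Per the file headers, the authors' scanner files come from Feature Extraction 11.5.1.1 and hold linear intensity values. The processed signal is background-subtracted and spatially detrended, and not normalized between arrays. The deposited value table holds the same intensities (all 39030 single-spot probes matched, to 0.0001 of the value); its medians were 137, 135 and 132. It is linear, with no scaling or centring, and carries no ratio.

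Control spots (1377) and outlier-marked spots (246, 246 and 267) were left out. Spots of 1 probe were averaged as log2 signals, from which the array's 75th percentile (all non-control spots) was taken away. Accessions without version were matched to RefSeq genes of GRCm38.p6 for names (27508 of 39429 probes). The array was designed on mm9, so coordinates are given only for RefSeq promoters. A gene was read by its brightest probe. It counted in a comparison if any of its probes was well above background on 1 of the 2 arrays. Where only 1 was, the ratio is a bound against the higher of the dim array's own level and its lowest level above background. No test was run, since each group has 1 array; precision is limited by that number. Of 165 list entries 162 were matched; Atf7, Hspa1b and Cd68 were not.

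The 10 genes and the lists were chosen with earlier results of these data known. All 10 genes are named. Of each list the text draws on members at least 2-fold apart whose brighter array read 1000 or more (at most 4 per direction) and at most 2 with the smallest ratios, besides those said to be named after their values were seen. The alternatives were 3 other scalings and 1 by a percentile over detected probes, normexp background correction (offset 50, limma 3.58.1), outlier spots kept, the mean of probes, 3 filters, the value table and a 1.5-fold threshold. Since the files used here carry no mean signal column, normexp used the median spot signal. The 1.5-fold counts under each alternative, the scanner errors and the Jun and Jund difference were added after seeing the data. The ratio code was tested on simulated data. Some members of the lists are counted but not reported here by name.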

Additional observations from a re-analysis of the deposited data

How the results depend on the processing

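None of the 10 genes reached 2-fold under any of 11 alternative settings; at the 1.5-fold threshold the count was 1 for Old p16-/- over Old WT and 1 for Old p16-/- over Young WT, Jun in both. Of the 30 gene-by-comparison log2 ratios, 27 kept 1 sign under every setting. The others (Junb for Old WT over Young WT, Fosb for Old p16-/- over Old WT, Egr1 for Old p16-/- over Young WT) lay between -0.04 and 0.08. The filters could drop a gene but not change its ratio. Keeping outlier spots changed none either, since no spot of the 10 genes was marked. The mean of probes could change Fosl2 alone, the only gene with more than 1 probe. Counts over all settings, here and below, include these, so they overstate how far stability was tested. Values were compared with the technical SD of a ratio (0.077); 7 of 353 alternative values moved by more, with Jun for Old p16-/- over Old WT at -0.77 by cyclic loess and by quantile normalization, and the cause was not tested. With a signal of at least 1000, which leaves 6 and 7 genes, the median was -0.14 for Old p16-/- over Old WT and -0.10 for Old p16-/- over Young WT; over all settings these medians ranged up to 0.03 and 0.00, so their sign is not settled. The Jun minus Jund difference stayed between -1.14 and -1.12 for Old p16-/- over Old WT. Only quantile normalization, cyclic loess and normexp could move this difference, since the other settings cancel out or leave both genes as they were. The pair was picked after its values were seen. Signal over background limits Fosb, Junb and Atf3, and the single array per group limits every value.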
